A study of Homo sapiens with 24 samples.

Results

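The genes described here are the solute carriers, taken as every gene whose symbol is SLC, a family number, the letter A and a member number, and which all files of a batch list. There were 117 of them among 6603 genes in batch 1 and 123 among 7223 genes in batch 2, and the 117 of batch 1 were all among the 123 of batch 2. Of these, 116 passed a filter on low values (a batch mean of 0.1 or more) in batch 1 and 118 in batch 2. Members under the filter were SLC9A9 in both batches and SLC22A10, SLC25A53, SLC38A4 and SLC47A1 in batch 2.

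The measurements were made by TT-seq, which sequences RNA that cells made while they took up a uridine analogue, so a value reflects recent transcription more than the standing pool of RNA. All libraries came from DLD1, a human colorectal adenocarcinoma cell line, in 3 derivatives. In the INTS11-dTAG line the gene for INTS11, the endonuclease of the Integrator complex, carried a dTAG degron at its own locus. In the INTS8-dTAG line the gene for INTS8, the subunit that helps to hold the phosphatase PP2A, carried it. The line called N211del here was the INTS8-dTAG line with an ectopically expressed INTS8 mutant, N211del. dTAG13 is a small molecule that directs a protein with this tag to degradation. Batch 1 held each line after 3 h in dTAG13 or in the vehicle DMSO. Batch 2 held the INTS11 and N211del lines after 0, 1 and 3 h in dTAG13, with the 0 h libraries as the only control. Each of the 12 groups had 2 libraries, described as biological duplicates, 24 libraries in all. No untagged line with dTAG13 was analysed here, so an effect of dTAG13 itself cannot be told apart from loss of the tagged protein, and the RNA of a degron-tagged gene does not report on loss of its protein.

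Solute carriers are membrane proteins that move small molecules across the plasma membrane or the membranes of organelles, by exchange, by cotransport with an ion, or by facilitated passage. Each family is named for a group of substrates or a mechanism, such as SLC9 for sodium/proton exchange, SLC16 for monocarboxylates, SLC25 for carriers of the inner mitochondrial membrane, and SLC30 and SLC39 for zinc leaving or entering the cytosol. An intestinal epithelial cell uses them for amino acid and sugar uptake, for lactate export and for control of its pH. Integrator acts on RNA polymerase II that has paused near promoters, through cleavage of the nascent RNA by INTS11 and through PP2A, and the series compares these 2 activities.

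Promoter sequences of 5 members are printed because these genes moved the same way in each of the 5 comparisons at 3 h described below: SLC9A5, SLC39A8 and SLC41A1 were higher in all 5, and SLC30A9 and SLC25A13 were lower in all 5. Each run is the 250 bases before the gene's annotated start, 5′ to 3′ on the gene's strand, from RefSeq on GRCh38.p14. Capitals mark matches on either strand to ACGTG, the core of the hypoxia response element (also found in CACGTG, where both strands match and overlap), and to GGGCGG, the GC box.
SLC9A5 (chr16:67248729-67248978, plus strand): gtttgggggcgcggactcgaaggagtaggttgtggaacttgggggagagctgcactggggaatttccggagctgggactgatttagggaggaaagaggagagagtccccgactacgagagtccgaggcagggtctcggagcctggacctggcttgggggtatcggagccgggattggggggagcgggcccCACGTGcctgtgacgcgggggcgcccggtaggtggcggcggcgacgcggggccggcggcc
SLC39A8 (chr4:102345254-102345503, minus strand): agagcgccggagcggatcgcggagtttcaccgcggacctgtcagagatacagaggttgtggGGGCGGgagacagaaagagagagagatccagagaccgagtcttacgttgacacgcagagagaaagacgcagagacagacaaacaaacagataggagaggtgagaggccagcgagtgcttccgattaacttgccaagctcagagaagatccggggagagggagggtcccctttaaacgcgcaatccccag
SLC41A1 (chr1:205813199-205813448, minus strand): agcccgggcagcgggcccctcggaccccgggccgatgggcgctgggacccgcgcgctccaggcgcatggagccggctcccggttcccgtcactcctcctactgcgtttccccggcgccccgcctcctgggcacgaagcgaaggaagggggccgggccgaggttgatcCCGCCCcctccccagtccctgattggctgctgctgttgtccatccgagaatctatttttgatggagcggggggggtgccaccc
SLC30A9 (chr4:41990280-41990529, plus strand): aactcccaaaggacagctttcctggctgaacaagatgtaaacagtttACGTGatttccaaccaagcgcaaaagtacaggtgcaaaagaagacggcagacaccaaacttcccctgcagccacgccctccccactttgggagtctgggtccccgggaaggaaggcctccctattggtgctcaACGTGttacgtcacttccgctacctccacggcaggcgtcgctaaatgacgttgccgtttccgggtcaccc
SLC25A13 (chr7:96322099-96322348, minus strand): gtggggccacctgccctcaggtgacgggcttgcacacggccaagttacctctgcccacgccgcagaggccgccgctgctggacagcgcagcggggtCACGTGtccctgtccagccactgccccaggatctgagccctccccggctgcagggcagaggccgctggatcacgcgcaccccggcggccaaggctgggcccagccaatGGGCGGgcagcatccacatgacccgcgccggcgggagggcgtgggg

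Of 123 members, 99 had a promoter in this table. The GC box was found in 70.7% of those 99 windows, in 67.9% of 5813 windows of genes in the files and in 42.3% of all 27305 windows of the same length. Among the 14 windows of members that were higher in all 5 comparisons it was found in 64.3%. The ACGTG core was found in 26.3% of member windows, in 22.4% of windows of genes in the files and in 18.7% of all windows. Among those 14 windows it was found in 28.6%. The AP-1 motif TGANTCA, searched on both strands, was found in 3 of those 14 windows, 21.4% (SLC29A3, SLC43A2 and SLC7A8). It was found in 9.09% of member windows, 4.46% of windows of genes in the files and 6.6% of all windows. No printed window held the TATA box TATAAA, the AP-1 motif or the cAMP response element TGACGTCA on either strand, which says only that these letters are not in it. In all, 6 motifs were searched. The TATA box and the amino acid response element TGATGNAAN were each found in 7.14% of the 14 windows, and the cAMP response element in 0%. Shares among all genes called higher in all 5 comparisons were not determined.

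Values are FPKM as deposited, and they were found to be per kilobase of a gene length that includes introns, so levels can be set beside each other between genes. The median tested member stood at 13.3 in batch 1, against 16.7 for all tested genes, and at 13.8 against 15.2 in batch 2. The most abundant members in batch 1 were SLC38A2, a sodium-coupled neutral amino acid transporter, at a mean of 168.7, and SLC3A2, the heavy chain that carries several amino acid exchangers to the plasma membrane, at 159.2. They were followed by the glutamine transporter SLC1A5 at 108.5, the mitochondrial phosphate carrier SLC25A3 at 102.6 and the phosphate transporter SLC20A1 at 69.5. A library of batch 1 held 5514811 to 8114955 whole-number units recovered from its values and a library of batch 2 held 8706126 to 11261859, and the median member had 351 to 533 and 547 to 830 of them. Of the 11 epithelial markers looked up, 7 were listed in batch 1 and 9 in batch 2, with summed levels of 2063 to 2547 and 3153 to 3531. Of 14 fibroblast, leukocyte and endothelial markers, COL1A1 alone was listed, in batch 2, and the summed level of the fibroblast list was at most 0.318. Replicate pairs correlated at 0.994 to 0.997 on the log2 scale across genes, a measure that does not see a difference in scale. The largest chi-square per gene between partners, 1.735, was that of the dTAG13 pair of the N211del line in batch 1. Those 2 libraries held 6175772 and 7015653 units. In 3 of the 6 pairs of each batch the partners differed by no more than counting noise could give, so they may be technical repeats; they were kept as 2 samples, and p-values then measure only the spread between these libraries.

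Loss of INTS11 for 3 h was compared with DMSO in batch 1. Of the tested members, 6 of 9 acid-base and anion exchangers and 5 of 6 monocarboxylate transporters were called higher. Mitochondrial carriers split into 4 higher and 6 lower of 25, and the glutamate transporter SLC1A1 and the zinc transporter SLC30A9 were called lower. Of 116 members, 34 were called higher, where all tested genes were called higher in 19.4%, and 14 were called lower, where all tested genes were called lower in 19.8%. A call is an adjusted p under 0.05 from limma, over all tested genes. The members' shares were 29.3% and 12.1%, and 48 were called in all, where 39.1% of all tested genes were. The median log2 fold change of members was 0.02, beside -0.03 for all tested genes. With each library centred on its median gene, 45 members were higher and 19 lower, where 26.1% and 24.5% of all tested genes were. Averaging the library pairs that agreed within noise gave fewer calls among members and among all tested genes. Leaving out any 1 library of this comparison did so too.

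SLC9A5, a sodium/proton exchanger, stood at 1.85 and 2.63 in the DMSO libraries of the INTS11 line and at 7.37 and 6.72 after dTAG13. Both treated libraries lay above both controls, with a log2 fold change of 1.63 (SE 0.14, adjusted p = 3.4e-08). SLC41A1, a magnesium transporter, stood at 11.1 and 12.6 in DMSO and at 20.3 and 20.4 after dTAG13, a log2 fold change of 0.78 (SE 0.08). For SLC9A5 and SLC41A1 the groups did not overlap. SLC26A2, a sulphate transporter, rose by 0.83, and SLC39A8, which takes up zinc and manganese, rose by 0.66. Among members at low levels, SLC22A11, an organic anion transporter, stood at 0.886 and 1.122 in DMSO and at 5.91 and 4.55 after dTAG13. Those values rest on 15 and 19 whole-number units and on 100 and 77 of them, and the log2 fold change was 2.27 (SE 0.24).

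The fall of SLC1A1 was the largest among the members with a mean level of at least 1 in the INTS11 line of batch 1. SLC1A1 stood at 23.6 and 25 in DMSO and at 17.5 and 17.8 after dTAG13, a log2 fold change of -0.46 (SE 0.08). In the INTS11 line of batch 2 at 3 h SLC1A1 was not called, and with each library centred it was called lower there. SLC30A9 changed by -0.44, SLC25A13, the mitochondrial aspartate/glutamate carrier, by -0.38, and SLC25A17, a peroxisomal member of the mitochondrial carrier family, by -0.36. SLC20A1 went from 72.0 and 74.6 to 59.4 and 58.5, a log2 fold change of -0.31 (SE 0.07). None of the falls reached 1.5-fold, while 16 of the rises did; of all tested genes, 1.2% fell and 8.36% rose by that much.

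After loss of INTS8 for 3 h, SLC26A2, SLC39A8 and other members that rose in the INTS11 line rose here too, and SLC1A1 and SLC17A5 fell again. In batch 1, 52 of 116 members were called higher, where all tested genes were called higher in 34.6%, and 26 were called lower, where all tested genes were called lower in 21%. Their median log2 fold change was 0.14, beside 0.06 for all tested genes. In all 78 were called, where 55.6% of all tested genes were. Centred on the median gene, 46 were higher and 35 lower, where 30.7% and 36.4% of all tested genes were. By at least 1.5-fold, 32 members rose, where 17.1% of all tested genes did, and 5 fell, where 3.78% did.

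SLC39A8 stood at 5.92 and 5.68 in DMSO and at 23.1 and 23.0 after dTAG13, a log2 fold change of 1.97 (SE 0.09). SLC26A2 stood at 6.19 and 6.83 in DMSO and at 23.0 and 22.5 after dTAG13, a log2 fold change of 1.79 (SE 0.10). SLC16A10, which carries aromatic amino acids, stood at 5.70 and 5.999 in DMSO and at 19.8 and 17.6 after dTAG13, a log2 fold change of 1.66 (SE 0.10). In each of these 3 genes the treated libraries were far above both controls. SLC41A1 went from 13.2 and 12.6 to 37.1 and 37.1, and SLC9A5 went from 2.58 and 2.41 to 11.6 and 10.8. SLC43A2, a transporter of large neutral amino acids, rose by 1.69, and SLC25A4, the mitochondrial ADP/ATP carrier, rose by 0.94. SLC22A11 had the largest log2 fold change of the members with a mean level of at least 1, 3.05 (SE 0.24), from 0.945 and 0.531 to 6.85 and 6.38.

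Falling members in the INTS8 line were led by SLC1A1, which stood at 26.9 and 27.4 in DMSO and at 12.6 and 11.9 after dTAG13, a log2 fold change of -1.14 (SE 0.08). SLC17A5, the lysosomal sialic acid exporter, stood at 12.4 and 12.1 in DMSO and at 6.87 and 5.74 after dTAG13, a log2 fold change of -0.95 (SE 0.09). SLC25A13 stood at 23.8 and 24.0 in DMSO and at 13.4 and 12.2 after dTAG13, a log2 fold change of -0.89 (SE 0.08). None of these groups overlapped. SLC27A2, a very long chain acyl-CoA synthetase that also serves fatty acid uptake, changed by -0.67 and the sugar phosphate exchanger SLC37A1 by -0.60.

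In the N211del line, where the INTS8 mutant was expressed beside the tagged INTS8, rises outnumbered falls more strongly. Of 116 members, 63 were called higher in batch 1, where all tested genes were called higher in 48.5%, and 6 were called lower, where all tested genes were called lower in 7.1%. The median gene of this contrast shifted by 0.21 on the log2 scale, and the median member by 0.27. In all 69 were called, where 55.6% of all tested genes were. After centring, 44 members were higher and 36 lower, where 26.9% and 35.2% of all tested genes were, so the split depends on the scaling. The DMSO libraries of this line held 5612470 and 5514811 whole-number units and the dTAG13 libraries 6175772 and 7015653. Values of batch 1 carry no library factor, so these totals enter the levels. The part of library size in the shift was not tested. The 6 members called lower were SLC1A1, SLC25A10, SLC25A13, SLC25A24, SLC30A9 and SLC37A1.

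SLC39A8 stood at 3.64 and 3.79 in DMSO and at 11.1 and 13.0 after dTAG13, a log2 fold change of 1.67 (SE 0.09). SLC25A4 stood at 23.6 and 28.5 in DMSO and at 60.3 and 60.8 after dTAG13, a log2 fold change of 1.22 (SE 0.08). In neither gene did the groups overlap. SLC41A1 rose by 1.56, SLC16A10 by 1.57 and SLC26A2 by 1.47. SLC2A3, the neuronal-type glucose transporter, stood at 1.89 and 1.24 in DMSO and at 3.48 and 4.60 after dTAG13, a log2 fold change of 1.33 (SE 0.18). SLC1A1 was again the largest fall, from 18.3 and 18.0 to 10.48 and 10.96, a log2 fold change of -0.76 (SE 0.08).

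**Figure D1:**
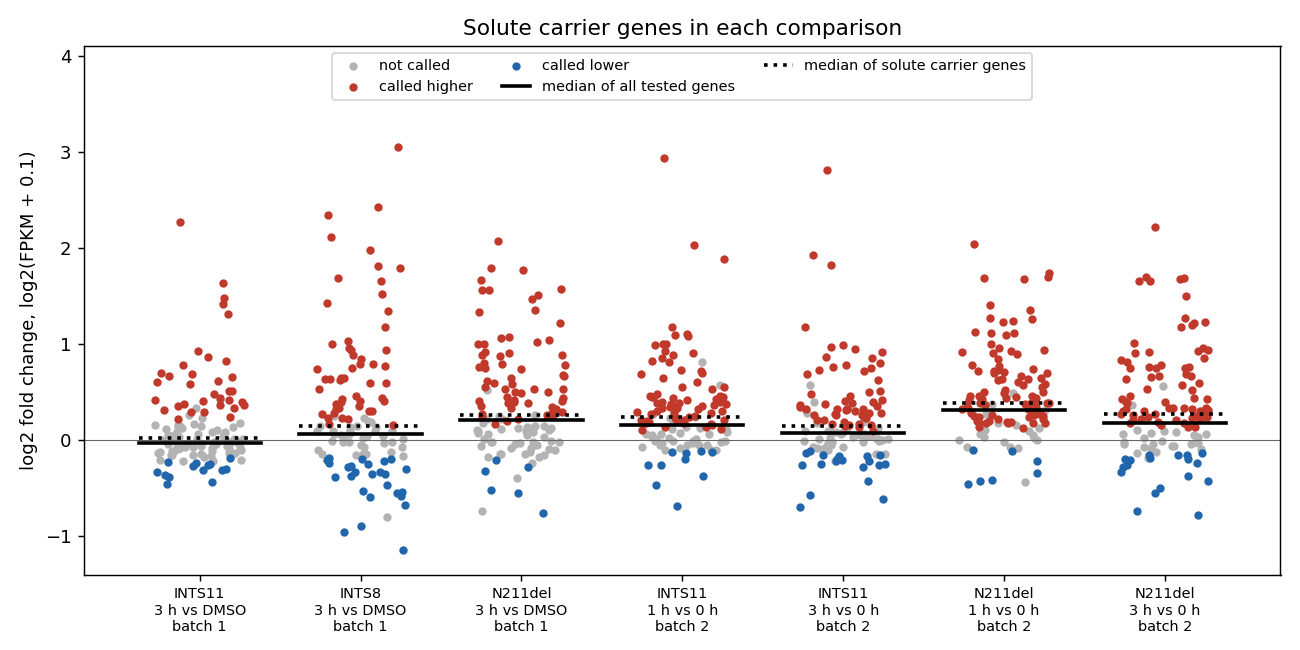
Each point is 1 solute carrier gene; the y axis is its log2 fold change on the log2(FPKM + 0.1) scale in each of 7 comparisons, with red for called higher, blue for called lower and grey for not called. The solid bar is the median of all tested genes and the dotted bar that of the solute carriers; the medians lie at -0.03 and 0.02 in the INTS11 line and at 0.21 and 0.27 in the N211del line of batch 1.

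In batch 2 the same lines were compared with their own 0 h libraries, so the 1 h and 3 h comparisons of a line share controls. After 1 h without INTS11, 70 of 118 members were called higher, where all tested genes were called higher in 46%, and 10 were called lower, where all tested genes were called lower in 9.86%. After 3 h there were 55 higher, where all tested genes were called higher in 36%, and 19 lower, where all tested genes were called lower in 19.3%. In the N211del line 89 members were called higher at 1 h, where all tested genes were called higher in 66%, and 7 were called lower, where all tested genes were called lower in 4.92%. At 3 h 73 were higher and 18 lower, where all tested genes were called higher in 49.7% and lower in 13.8%. The median gene shifted by 0.16 and 0.08 in the INTS11 line and by 0.31 and 0.18 in the N211del line. Calls in either direction numbered 80 and 74 in the INTS11 line, where 55.9% and 55.4% of all tested genes were called, and 96 and 91 in the N211del line, where 71% and 63.5% were. Centred on the median gene, the INTS11 line had 44 higher and 28 lower members at 1 h, where 29% and 30.3% of all tested genes were, and 47 and 27 at 3 h, where 31.8% and 28.9% were. The N211del line then had 42 and 30 at 1 h, where 29.5% and 36.1% of all tested genes were, and 43 and 35 at 3 h, where 30.9% and 35.1% were. Averaging the pairs that agreed within noise gave fewer calls in the INTS11 line at 3 h, among members and among all tested genes.

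SLC9A5, SLC39A8 and SLC41A1 had moved by 1 h. SLC9A5 in the INTS11 line went from 2.78 and 2.13 to 9.35 and 9.17 at 1 h and 9.44 and 8.30 at 3 h. In the N211del line SLC9A5 went from 2.003 and 2.144 to 7.10 and 7.15 and then to 6.43 and 5.71. SLC39A8 in the N211del line went from 3.95 and 4.79 to 14.5 and 13.7 and then to 14.04 and 13.8. In both genes the 1 h and 3 h libraries lay above the 0 h libraries. SLC41A1 stood at 12.3 and 10.7 at 0 h, 23.9 and 21.8 at 1 h and 21.9 and 22.5 at 3 h in the INTS11 line, a log2 fold change of 0.95 (SE 0.07) at 3 h. In the N211del line SLC41A1 stood at 17.5 and 15.9, then at 39.5 and 38.9, then at 40.5 and 40.4.

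Several members fell further between 1 h and 3 h in the N211del line. SLC1A1 stood there at 19.1 and 19.7 at 0 h, at 14.6 and 14.2 at 1 h and at 11.7 and 10.9 at 3 h. SLC25A13 stood at 19.8 and 20.5, then at 15.7 and 16.1, then at 12.3 and 11.8. The 3 time points of each of these genes did not overlap. SLC17A5 stood at 12.5 and 12.9 at 0 h, at 13.5 and 14.3 at 1 h and at 8.95 and 8.39 at 3 h. Its rise at 1 h, 0.13 on the log2 scale, became -0.22 with each library centred. In a test of 3 h against 1 h, chosen after seeing the data, SLC17A5 changed by -0.68 (SE 0.05, adjusted p = 6.1e-05) and SLC25A13 by -0.40 (SE 0.04), both in the N211del line. SLC2A3 stood at 4.94 and 5.28 at 0 h, 5.73 and 5.85 at 1 h and 8.68 and 8.61 at 3 h, and rose by 0.57 from 1 h to 3 h. That test called 3 members higher and 44 lower in the N211del line, where 2.2% and 35% of all tested genes were (47 in all, where 37.2% were). After centring it called 14 higher and 16 lower, where 11.6% and 7.63% were. In the INTS11 line it called 1 higher and 19 lower, where 0.475% and 15.1% of all tested genes were (20 in all, where 15.6% were). After centring it called 4 higher and 1 lower, where 1.55% and 1.21% were. When only the libraries compared were fitted, the 20 calls of the INTS11 line became 0, where 1 of 6950 tested genes was called. Leaving out either 3 h library or 1 h replicate 1 also removed the calls of members and nearly all calls of other genes. Leaving out 1 h replicate 2 kept most of them.

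**Figure D2:**
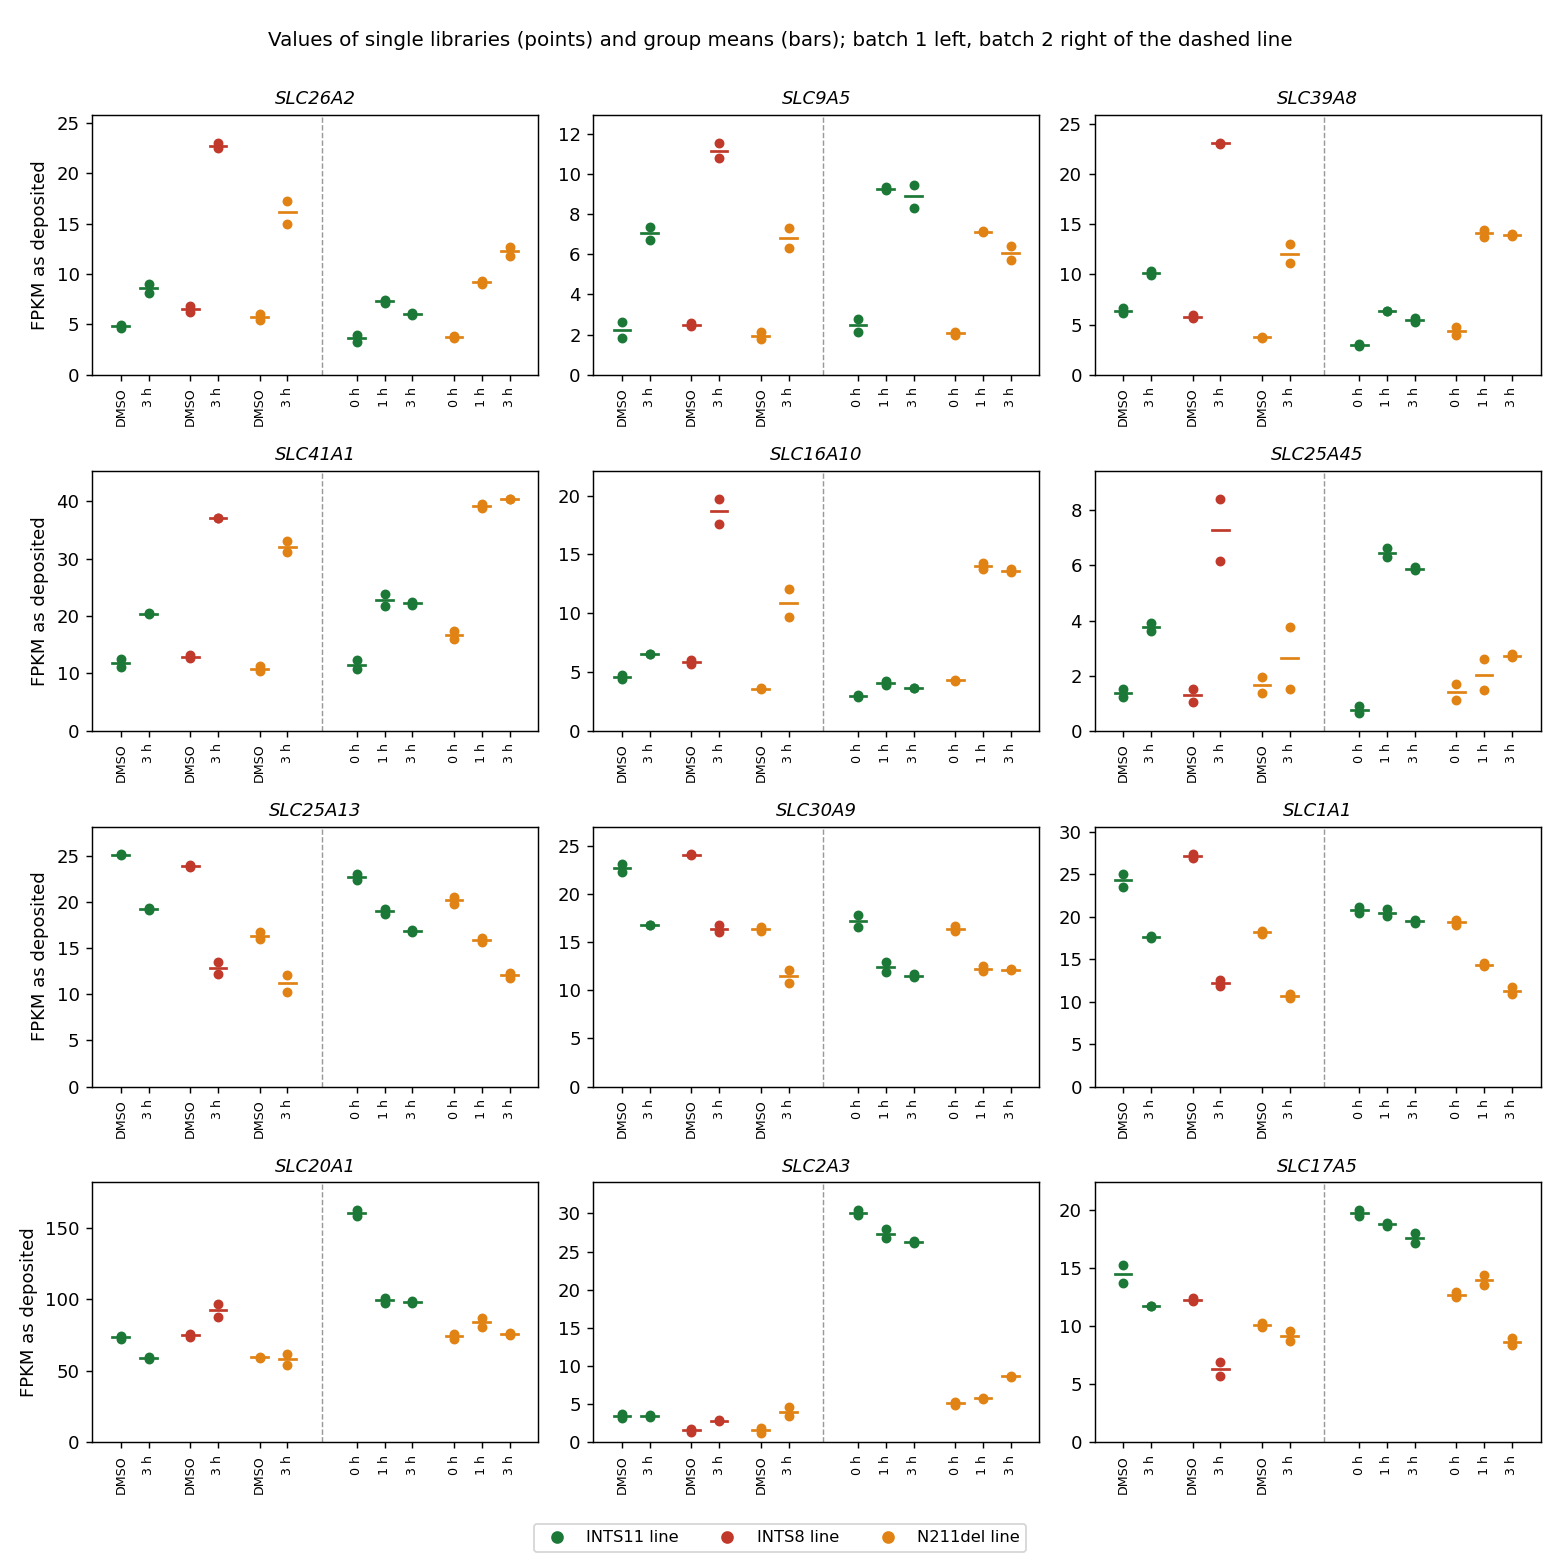
Each panel shows 1 gene, with FPKM as deposited on the y axis, every library as a point and the group mean as a bar; batch 1 lies left of the dashed line and batch 2 right of it, and colours mark the lines. SLC39A8 reaches 23.1 and 23.0 in the INTS8 line after dTAG13 and 10.4 and 9.96 in the INTS11 line, while SLC1A1, SLC25A13 and SLC30A9 lie lower after dTAG13 in every line of batch 1.

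Across the 5 comparisons at 3 h, 20 of 116 members (17.2%) were called higher in each, where 12.1% of all 6569 genes tested in both batches were. Among them were the exchangers SLC9A5, SLC4A3 and SLC26A2, the metal transporters SLC39A8, SLC39A12 and SLC41A1, the amino acid transporters SLC1A3, SLC7A8, SLC16A10, SLC43A1 and SLC43A2, SLC16A13, the organic ion transporters SLC22A3 and SLC22A11, the nucleoside transporter SLC29A3, SLC37A2, and the mitochondrial carriers SLC25A4 and SLC25A14. SLC25A13, SLC25A24 and SLC30A9 were called lower in each, 2.59% of members, where 2.19% of all genes were. SLC25A24 is a mitochondrial carrier of ATP-Mg and phosphate. After centring the counts were 17 higher and 11 lower, where 727 and 750 of the 6569 genes were. SLC4A3, SLC25A4, SLC25A14, SLC39A12 and SLC43A1 then left the higher list, and SLC4A7 and SLC45A4 entered it. The comparisons of 1 line in the 2 batches share no library, and the members' log2 fold changes correlated across the 116 genes at Pearson's r = 0.81 for the INTS11 line and r = 0.90 for the N211del line. Over all genes r was 0.828 and 0.908. SLC10A5, SLC25A20, SLC25A42 and SLC39A4 were called in none of the 5, and with centring SLC39A4 alone of these was called in none.

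In each line of batch 1, members called higher had a lower median level than members called lower. In the INTS8 line their median levels were 9.98 and 19.5, beside 12.2 and 21.4 for all genes called higher and lower. In the INTS11 line of batch 1 they were 5.76 and 23.5, beside 8.16 and 25.1 for all genes. In the N211del line of batch 1 members stood at 10.8 and 23.5, while all genes ran the other way, at 14.8 for higher and 14.1 for lower. The part of level in the direction of change was not tested.

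The 9 tested acid-base and anion exchangers (families SLC4, SLC9 and SLC26) were called higher more often than lower. The lists were grouped by substrate from textbook knowledge, with earlier results of these data known, so these counts are a description. They are read beside the share of all tested genes called higher, which was 19.4%, 34.6% and 48.5% in the INTS11, INTS8 and N211del lines of batch 1 and 36% and 49.7% in the INTS11 and N211del lines of batch 2 at 3 h. In the same order, 19.8%, 21%, 7.1%, 19.3% and 13.8% were called lower. With centring, 26.1%, 30.7%, 26.9%, 31.8% and 30.9% were higher and 24.5%, 36.4%, 35.2%, 28.9% and 35.1% lower. In the INTS11, INTS8 and N211del lines of batch 1, 6, 5 and 7 of the 9 were called higher and 0 were called lower. In batch 2 at 3 h, the INTS11 line had 8 higher and 0 lower, and the N211del line had 8 higher and 1 lower, where SLC9A8, a sodium/proton exchanger of internal membranes, changed by -0.28. The list's median log2 fold change was 0.47, 0.53 and 1.04 in batch 1, beside -0.03, 0.06 and 0.21 for all tested genes. Centring gave 8, 5 and 7 higher and 0, 1 and 1 lower in batch 1, and 7 and 5 higher and 0 and 1 lower in batch 2. SLC4A7, a sodium bicarbonate cotransporter chosen after its values were seen, changed by 1.00 in the INTS8 line and 1.06 in the N211del line, beside 0.17 (adjusted p = 0.081, not called) in the INTS11 line.

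The 6 monocarboxylate transporters of family SLC16 were higher in 5, 6 and 5 cases in batch 1 and lower in 0. Of all tested genes, 19.4%, 34.6% and 48.5% were called higher and 19.8%, 21% and 7.1% lower. In batch 2 at 3 h, 4 and 5 were higher, beside 36% and 49.7%. Centring kept these counts of higher calls and added 1 lower call in the N211del line of each batch, beside the centred shares given above. SLC16A13 stood at 13.5 and 14.5 in the DMSO libraries of the INTS11 line and at 27.1 and 18.9 after dTAG13, and it went from 17.7 and 17.2 to 35.9 in both libraries of the INTS8 line. Its log2 fold change was 0.69 in the first line and 1.04 in the second. SLC16A5 responded differently in 2 lines: it rose by 0.69 at 3 h in the INTS11 line of batch 2 and changed by -0.04 (adjusted p = 0.41) in the N211del line, and the difference was 0.73 (SE 0.06, adjusted p = 1.3e-05).

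Amino acid transporters moved in both directions. Of 20 tested, 6, 10 and 10 were higher and 1, 6 and 1 lower in the INTS11, INTS8 and N211del lines of batch 1, beside 19.4%, 34.6% and 48.5% of all tested genes called higher and 19.8%, 21% and 7.1% called lower. Centring gave 7, 8 and 7 higher and 1, 8 and 8 lower. Of all tested genes, 26.1%, 30.7% and 26.9% were then higher and 24.5%, 36.4% and 35.2% lower. The list's median log2 fold change lay within 0.10 of the median gene in each of these lines. SLC1A3 (chosen after its values were seen) and SLC1A1 are both glutamate transporters, and they went opposite ways: SLC1A3 rose by 1.18 in the INTS8 line and by 1.36 in the N211del line, where SLC1A1 fell. SLC7A8, a light chain that pairs with SLC3A2, rose by 0.62 in the INTS8 line, while SLC3A2 itself rose by 0.16. SLC38A2, the most abundant member, changed by -0.14, -0.11 and -0.09 in the 3 lines of batch 1 and was called in none of them.

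Mitochondrial carriers of family SLC25 also split. Of 25 tested, 4, 10 and 12 were higher and 6, 8 and 3 lower in batch 1, in the same order of lines. The shares of all genes were the same (19.4%, 34.6% and 48.5% higher, 19.8%, 21% and 7.1% lower). Centring gave 6, 7 and 8 higher and 7, 11 and 8 lower. Of all tested genes, 26.1%, 30.7% and 26.9% were then higher and 24.5%, 36.4% and 35.2% lower. The ADP/ATP carrier SLC25A4 and SLC25A14 were called higher in all 5 comparisons at 3 h. Under centring, the call for SLC25A4 was lost in the INTS11 line of batch 2 and that for SLC25A14 in the N211del line of both batches. SLC25A13, SLC25A24 and the dicarboxylate carrier SLC25A10 were called lower in each line of batch 1. SLC25A10 stood at 33.3 and 32.2 in the DMSO libraries of the INTS8 line and at 25.6 and 24.7 after dTAG13. SLC25A3 changed by -0.24 in the INTS11 line, by -0.21 in the INTS8 line and by 0.07 (not called) in the N211del line.

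SLC25A45 changed by different amounts in different lines. In the INTS11 line of batch 2 it stood at 0.629 and 0.906 at 0 h, at 6.30 and 6.62 at 1 h and at 5.95 and 5.82 at 3 h. In the N211del line it stood at 1.70 and 1.10 at 0 h, at 2.61 and 1.47 at 1 h and at 2.66 and 2.77 at 3 h. The INTS11 libraries of 1 h and 3 h lay far above those of 0 h, while in the N211del line the 0 h and 1 h values overlapped. In batch 2 each value of SLC25A45 rested on 7 to 71 whole-number units. SLC25A45 overlaps FRMD8 on the opposite strand in the RefSeq annotation, and FRMD8 rose by 0.56 in the INTS11 line of batch 2 at 3 h, where SLC25A45 rose by 2.81. In batch 1 SLC25A45 rose by 1.42 in the INTS11 line and by 2.43 in the INTS8 line, while FRMD8 changed by 0.01 (adjusted p = 0.96) and 0.09 (adjusted p = 0.42). Strand use in the counting step is unknown from the sources read, so reads of the pair may not be told apart. The limit is not confined to SLC25A45. In that annotation 70 of 123 members overlap another gene, and 14 overlap a protein-coding gene.

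Of the 14 zinc transporters, 3, 6 and 7 were higher and 2, 2 and 1 lower in batch 1. Of all tested genes, 19.4%, 34.6% and 48.5% were called higher and 19.8%, 21% and 7.1% lower. Centring gave 4, 5 and 3 higher and 2, 3 and 3 lower, beside 26.1%, 30.7% and 26.9% of all tested genes higher and 24.5%, 36.4% and 35.2% lower. SLC39A8 and SLC30A9, in opposite directions, were its members with the same call in all 5 comparisons at 3 h, together with SLC39A12, which stood at 0.362 and 0.285 in the DMSO libraries of the INTS11 line and at 1.07 in both dTAG13 libraries. SLC30A9 stood at 23.1 and 22.3 in the INTS11 line and at 16.7 in both libraries after dTAG13. In the INTS8 line it went from 24.0 and 24.1 to 16.7 and 16.03, and in the N211del line from 16.6 and 16.2 to 10.8 and 12.1. The log2 fold changes in the 3 lines were -0.44, -0.55 and -0.52, and the difference between the INTS11 and INTS8 responses was 0.11 (SE 0.11, adjusted p = 0.49). The calls for SLC39A12 in the N211del line were lost with a pseudocount of 1 in batch 1 and with 0.01 in batch 2, and with centring in both batches.

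Of 9 sugar transporters in batch 1, 4 were higher in each line and 2, 2 and 1 lower. Of all tested genes, 19.4%, 34.6% and 48.5% were called higher and 19.8%, 21% and 7.1% lower. Centring gave 5, 4 and 4 higher and 2, 2 and 4 lower, beside 26.1%, 30.7% and 26.9% of all tested genes higher and 24.5%, 36.4% and 35.2% lower. SLC37A2, a sugar phosphate exchanger, rose by 0.86, 1.34 and 0.67 in the 3 lines, and its relative SLC37A1 changed by -0.27, -0.60 and -0.28. SLC37A1 did not keep its direction between batches in the INTS11 line: it went from 32.3 and 32.8 to 27.3 and 26.8 in batch 1, and from 28.7 and 28.6 to 30.3 and 31.0 in batch 2. The second change, 0.10 on the log2 scale, was not called with each library centred. Beside these, the thiamine transporter SLC19A2 rose by 0.64 in the INTS8 line and by 0.79 in the N211del line. Its log2 fold change in the INTS11 line of batch 1 was 0.12 (adjusted p = 0.19).

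**Figure D3:**
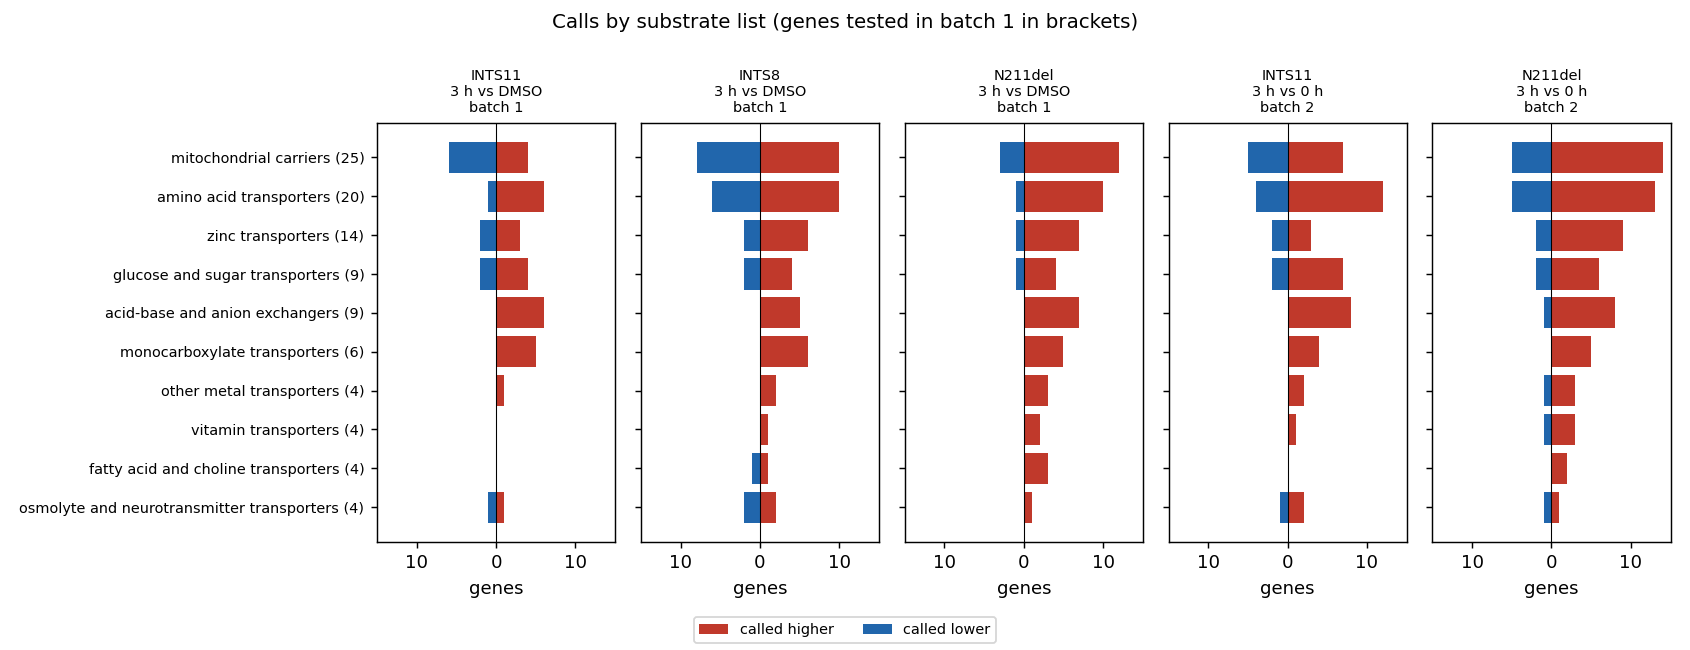
Bars count solute carrier genes called higher (red, to the right) and lower (blue, to the left) in each substrate list with at least 4 tested members, in the 5 comparisons at 3 h. Acid-base and anion exchangers and monocarboxylate transporters have bars to the right in all 5 panels, with 1 gene to the left in the N211del line of batch 2.

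The INTS11 and INTS8 responses of batch 1 were then compared with each other by an interaction term. Of 116 members, 9 had a more positive response to loss of INTS11, where 6% of all tested genes did, and 26 a more negative one, where 19.4% did, 35 in all, where 25.4% were called. After centring the numbers were 28 and 22, where 20.9% and 17.1% of all tested genes were called. SLC39A8 differed by -1.31 (SE 0.13, adjusted p = 1.2e-07): its rise was 0.66 after loss of INTS11 and 1.97 after loss of INTS8. Further members differed, SLC43A2 by -1.26, SLC16A10 by -1.14, SLC26A2 by -0.96 and SLC10A7, a member of the bile acid transporter family, by -0.95. All of these rose more in the INTS8 line. SLC10A7 stood at 9.46 and 9.29 in the DMSO libraries of the INTS11 line and at 8.99 and 8.88 after dTAG13, against 9.40 and 9.27 and then 18.1 and 16.5 in the INTS8 line. SLC9A5 differed by -0.49 (SE 0.20, adjusted p = 0.078), which missed the threshold. SLC1A1 and SLC17A5 fell more in the INTS8 line, by 0.68 and 0.65. Across the 116 members the responses correlated at r = 0.80, beside r = 0.723 over all genes.

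SLC20A1 went in opposite directions in these lines. It fell by 0.31 after loss of INTS11 and rose by 0.30 after loss of INTS8, from 75.7 and 74.0 to 96.8 and 87.7, and the difference was -0.61 (SE 0.10, adjusted p = 7.0e-05). SLC25A38, a mitochondrial glycine carrier, changed by -0.25 and 0.32. These were the 2 of 116 members called lower in the INTS11 line and higher in the INTS8 line, 1.72%, where 1.55% of all tested genes were. No member was called the other way round, and 0.304% of all tested genes were.

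In batch 2 the INTS11 and N211del responses at 3 h differed in 65 of 118 members, 21 more positive in the INTS11 line, where 15.2% of all tested genes were, and 44 more negative, where 35.8% were. For all tested genes 50.9% were called in either direction. The split became 35 and 31 with centring, where 28.7% and 25.2% of all tested genes were called. SLC25A45 had the largest difference, 1.86 (SE 0.37, adjusted p = 0.0026), higher in the INTS11 line. SLC16A10 differed by -1.35 (SE 0.08, adjusted p = 2.8e-06), SLC25A4 by -1.05, SLC43A1 by -0.97, the zinc exporter SLC30A4 by -0.96 and SLC26A2 by -0.95. SLC16A10 stood at 3.03 and 2.85 at 0 h and 3.66 and 3.62 at 3 h in the INTS11 line, and at 4.22 and 4.33 and then 13.7 and 13.5 in the N211del line. SLC25A4 stood at 31.1 and 31.8 and then 35.3 in both libraries in the INTS11 line, and at 26.6 and 27.6 and then 65.6 and 60.6 in the N211del line. SLC39A8 and SLC26A2 also rose more in the N211del line than in the INTS11 line, with differences of -0.80 and -0.95 on the log2 scale (INTS11 minus N211del).

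Members called in opposite directions in batch 2 were 6 lower in the INTS11 line and higher in the N211del line (SLC2A3, SLC10A7, SLC25A36, SLC35A1, SLC36A4 and SLC38A2), 5.08%, where 6.23% of all tested genes were. Another 5 went the other way (SLC2A10, SLC6A20, SLC9A8, SLC37A1 and SLC38A10), 4.24%, where 2.1% of all tested genes were. SLC35A1, the CMP-sialic acid transporter of the Golgi, stood at 7.78 and 7.95 at 0 h and 5.33 and 4.92 at 3 h in the INTS11 line, and at 5.49 and 5.56 and then 6.78 and 6.18 in the N211del line. The difference of the 2 responses of SLC35A1 was -0.83 (SE 0.08). SLC38A2 stood at 270.7 and 259.7 and then 220.7 and 215.1 in the INTS11 line, and at 171.0 and 175.5 and then 204.5 in both libraries in the N211del line. With each library centred, SLC25A36, SLC35A1, SLC36A4, SLC37A1, SLC38A2 and SLC38A10 were each called in only 1 of the 2 lines, and the other 5 kept both calls.

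**Figure D4:**
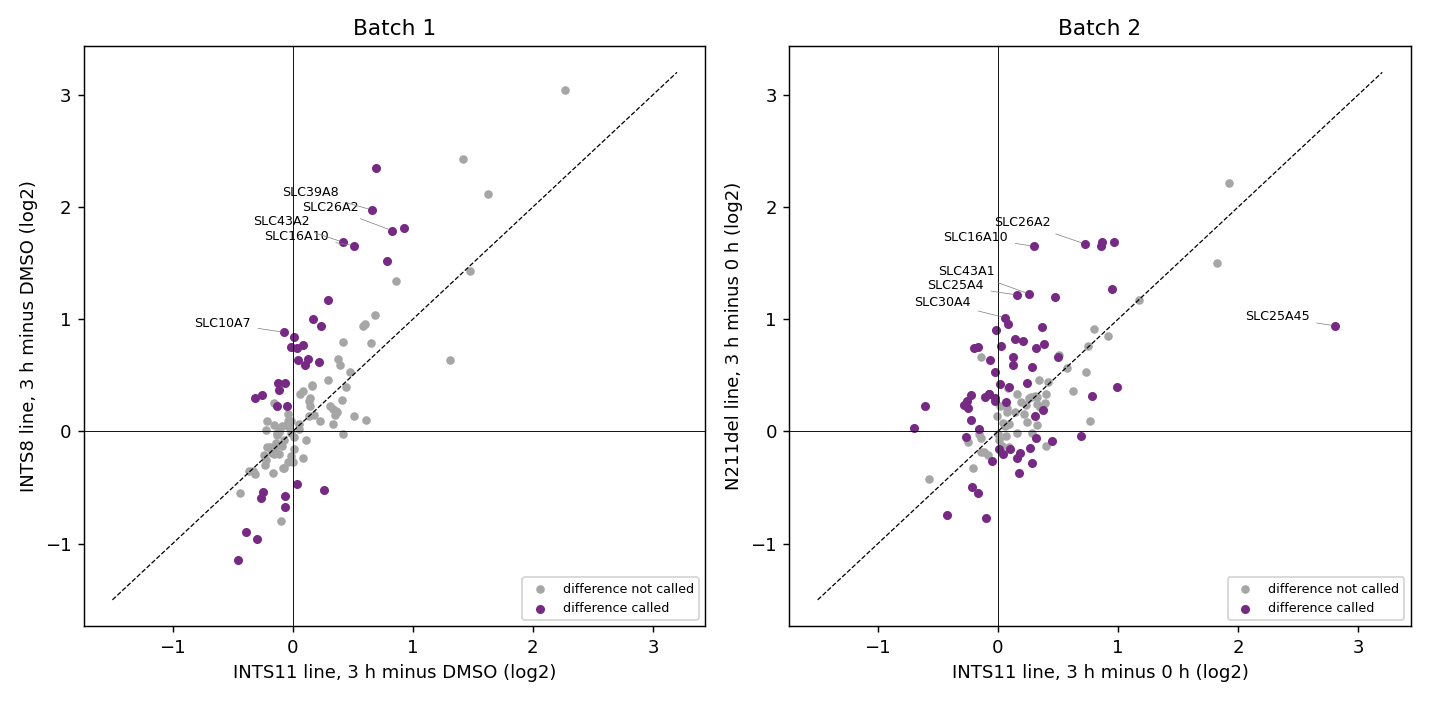
Each point is 1 solute carrier gene, with its log2 fold change in the INTS11 line on the x axis and in the INTS8 line (batch 1) or the N211del line (batch 2) on the y axis; purple marks genes whose responses differed at an adjusted p under 0.05, and the dashed line marks equal responses. SLC39A8 lies above the line in batch 1, SLC16A10 and SLC26A2 above it in both batches, and SLC25A45 below it in batch 2.

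The N211del and INTS8 responses of batch 1 were closest to each other, with r = 0.865 across members and 0.903 over all genes. Their difference was called in 19 of 116 members, 14 more positive in the N211del line, where 9.04% of all tested genes were, and 5 more negative, where 2.01% were; for all tested genes 11.1% were called in either direction. Centring gave 13 and 13, where 4.36% and 7.13% of all tested genes were called. Leaving out N211del dTAG13 replicate 1 gave more calls, among members and among all tested genes. Leaving out a DMSO library of either line, N211del dTAG13 replicate 2 or INTS8 dTAG13 replicate 2 gave fewer in both. Averaging the pairs within noise also gave fewer in both. The median log2 difference of all tested genes was 0.16, and it was 0.24 without N211del dTAG13 replicate 1. SLC17A5 differed by 0.81 (SE 0.13, adjusted p = 0.0013): it fell by 0.95 in the INTS8 line and stood at 10.3 and 9.94 in DMSO and 8.68 and 9.59 after dTAG13 in the N211del line. SLC22A11 differed by -1.53, SLC25A48 by 0.94, SLC39A12 by -0.84, SLC37A2 by -0.67 and SLC9A2 by 0.59. For SLC41A1 the difference was 0.04 (SE 0.11, adjusted p = 0.80).

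Some members differed between lines without dTAG13. In batch 2 at 0 h, 45 of 118 members were higher in the N211del line than in the INTS11 line, where 38.4% of all tested genes were, and 43 were lower, where 31.6% were (70% in either direction). Centring gave 44 and 48, where 36.7% and 35.5% of all tested genes were called. SLC2A3 stood at 29.8 and 30.4 in the INTS11 line and at 4.94 and 5.28 in the N211del line, a log2 difference of -2.54 (SE 0.04). Chosen after their values were seen, SLC7A11, the cystine/glutamate exchanger, stood at 52.5 and 50.8 against 11.9 and 12.2, and SLC16A4 at 11.9 and 11.3 against 2.27 and 2.36. SLC6A13, a transporter of GABA and taurine, went the other way, 0.142 and 0.0637 against 0.923 and 0.854. Over all libraries of batch 1, SLC7A11 ranged only from 21.8 to 34.5 and SLC16A4 from 2.69 to 5.56. Gaps between lines as large as those of batch 2 were therefore not seen there for these 2 genes. Between the DMSO libraries of batch 1, 38 members were higher in the INTS8 line than in the INTS11 line, where 26.8% of all tested genes were, and 4 were lower, where 3.91% were (30.7% in either direction). Centring gave 34 and 18, where 21.2% and 18.4% of all tested genes were called. SLC6A13 was also higher there, by 2.12, and SLC2A3 lower, by 1.09. SLC2A3 was at 3.66 and 3.18 in the DMSO libraries of the INTS11 line in batch 1, beside 29.8 and 30.4 at 0 h in batch 2. The batches were normalized separately. The median gene of these libraries stood at 15.7 and 16.2 in batch 1 and at 13.0 and 12.4 in batch 2. The cause of the gap in SLC2A3 between batches was not tested.

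**Figure D5:**
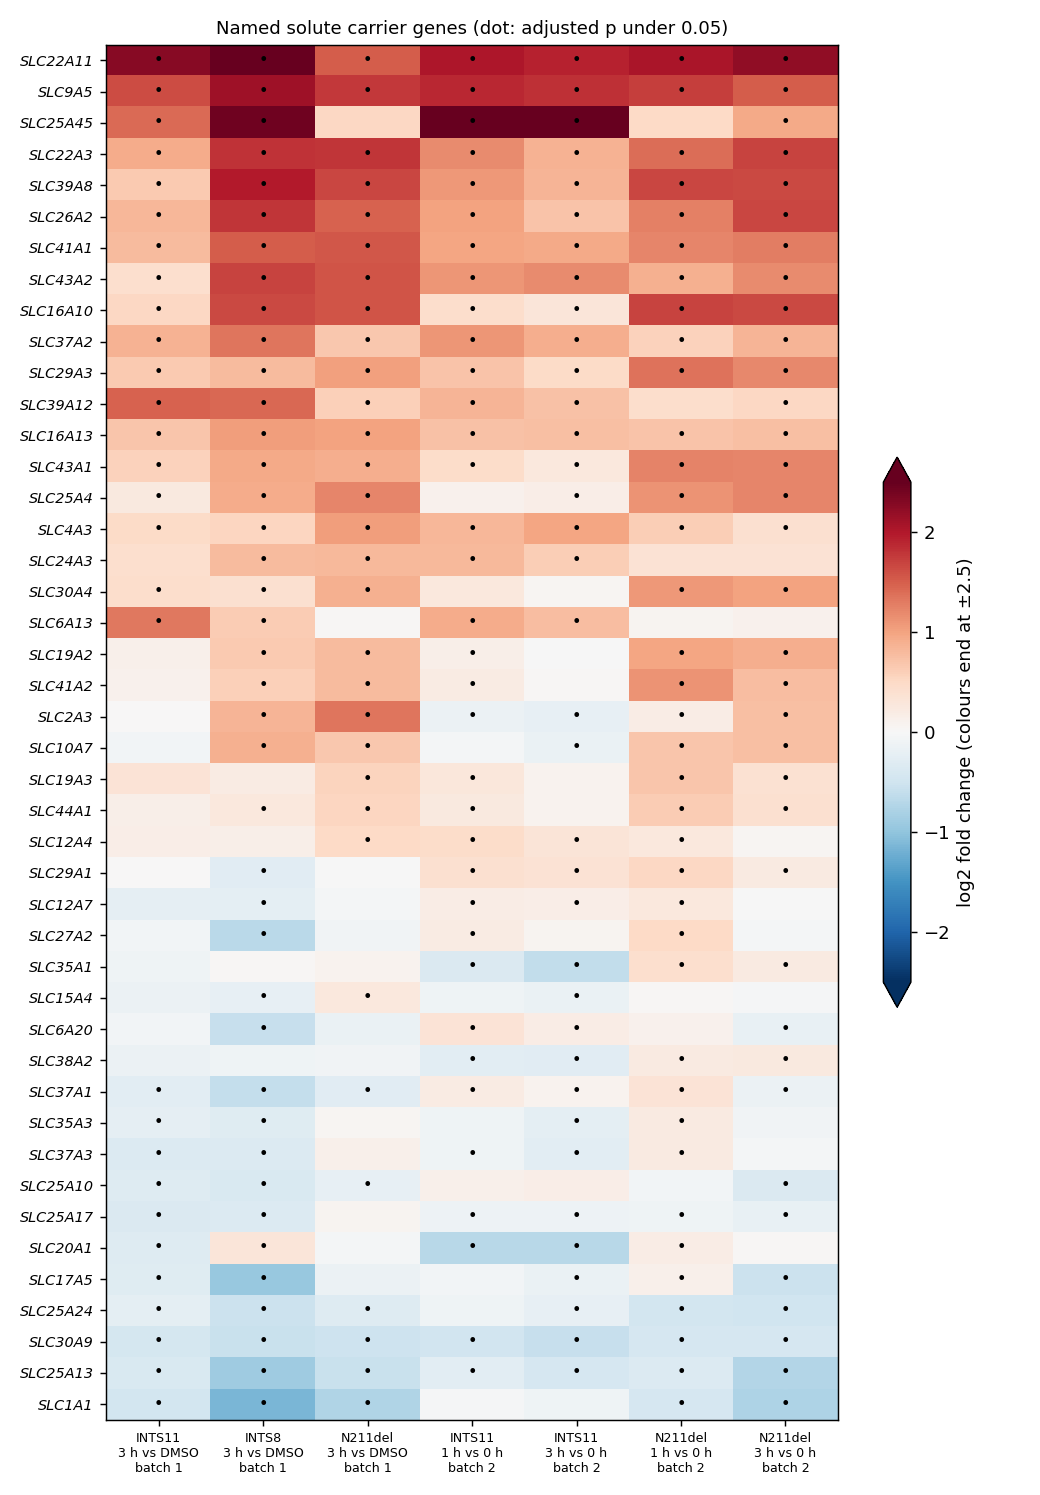
Rows are 44 of the named solute carrier genes, columns the 7 comparisons with a control, colour the log2 fold change (red higher, blue lower, ending at ±2.5) and a dot marks an adjusted p under 0.05. The rows from SLC22A11 down to SLC16A13 are red in every column, and SLC30A9 and SLC25A13 near the bottom are blue in every column.

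Transport genes that the naming rule leaves out were read beside the members. Of 18 tested in batch 1, 4, 4 and 11 were called higher and 2, 2 and 0 lower in the INTS11, INTS8 and N211del lines. Of all tested genes, 19.4%, 34.6% and 48.5% were called higher and 19.8%, 21% and 7.1% lower. Centring gave 5, 4 and 4 higher and 3, 4 and 2 lower, beside 26.1%, 30.7% and 26.9% of all tested genes higher and 24.5%, 36.4% and 35.2% lower. The chloride channel gene CFTR, which works beside anion exchangers in epithelia, stood at 2.96 and 3.04 in the DMSO libraries of the INTS8 line and at 7.70 and 7.59 after dTAG13, a log2 fold change of 1.32 (SE 0.10). CFTR rose by 0.67 in the INTS11 line and by 1.11 in the N211del line. BSG, the partner that brings monocarboxylate transporters to the cell surface, changed by -0.05, -0.03 and 0.06 in these lines and was called in none. The organic anion transporter gene SLCO1B3 rose by 0.27, 0.83 and 0.84.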

How the data were processed

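TT-seq was made from 24 libraries of DLD1 derivatives in 12 groups of 2. The authors deposited FPKM values per gene, per the file headers. The submitters' processing notes name STAR 2.7.5c, Trim Galore 0.6.6, Picard 2.23.3, SAMtools 1.9 and DESeq2 1.26.0, and the builds hg19 and mm10 without a role. The counting tool and its use of strand are not given in the sources used here. Values of batch 1 were whole numbers divided by gene length, introns included (median length 34300 bases). Those of batch 2 were whole numbers times a library factor of 0.565 to 0.753, divided by the length plus 1 base. At least 99.97% of values came out whole within 0.02. What 1 unit counts is not stated, so no count test was used.

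Genes with a batch mean of at least 0.1 were tested in R 4.3.3 with limma 3.58.1 on log2(FPKM + 0.1), a mean for each group, robust and trended variance shrinkage and Benjamini-Hochberg adjustment over all tested genes of a comparison. A call is an adjusted p under 0.05. Fold changes are on this scale, which understates the change of low genes. Batches were fitted apart. The procedure was also run on simulated data, with noise drawn independently for each library. Those data held no shifts of whole libraries and no pairs resembling technical repeats, so the run does not cover these features. Alternatives were other pseudocounts, filters, centring, a replicate block, averaged pairs and leaving out each library. Library totals of whole-number units, 5514811 to 11261859, set the precision.

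The members, the lists and the tests were chosen with earlier results of these data known. Genes are named where, in a comparison at 3 h, they were among the 6 largest called rises or falls with a batch mean of at least 1 and treated libraries on 1 side of both controls, among the 2 largest called changes of a list, or among the 6 largest called differences between responses; the text gives part of these and says where a gene was chosen after its values were seen. Results for 2 members are not reported here, though counts and medians include them. Same-numbered libraries did not deviate together (r from -0.079 to 0.024), so numbers were not taken to pair them. The treatment label gives 3 h throughout; times were taken from the sample labels of each library.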

Additional observations from a re-analysis of the deposited data

Results flagged for a closer look

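These differences between responses were called by limma's interaction term and are given on the log2 scale, first response minus second, with 2 libraries a group. For INTS11 minus INTS8 in batch 1, they were SLC39A8 at -1.31, SLC43A2 at -1.26, SLC16A10 at -1.14, SLC26A2 at -0.96 and SLC10A7 at -0.95. For INTS11 minus N211del at 3 h in batch 2, they were SLC25A45 at 1.86, SLC16A10 at -1.35, SLC25A4 at -1.05, SLC43A1 at -0.97, SLC30A4 at -0.96 and SLC26A2 at -0.95. For N211del minus INTS8 in batch 1, they were SLC22A11 at -1.53, SLC25A48 at 0.94, SLC39A12 at -0.84, SLC17A5 at 0.81, SLC37A2 at -0.67 and SLC9A2 at 0.59.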

How the results depend on the processing

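Of 322 gene results, 321 kept their direction and call with a pseudocount of 0.01, 319 with 1, 322 without the filter, 304 when only the libraries compared were fitted and 275 with the pairs within noise averaged. With each library centred 259 did, while 21 lost their call, 32 gained one and 10 reversed. Leaving out 1 library at a time kept 1153 of 1288 values; 121 lost their call and 14 gained one. With a replicate block, 318 kept them, and the block moved no count of calls by over 1.5 times; the INTS11 line of batch 1 had 46 calls and its 3 h against 1 h test had 14. With the pairs averaged, calls numbered 24 in the INTS11 line of batch 1, 42 in that line at 3 h in batch 2, 2 for N211del minus INTS8, and, for 3 h against 1 h, 0 (INTS11 line) and 29 (N211del); this leaves fewer samples. With only the libraries compared, the INTS11 line had 0 for 3 h against 1 h. With each library centred, 3 h against 1 h gave 5 (INTS11 line) and 30 (N211del). Without 1 library at a time, calls ranged from 30 to 41 in the INTS11 line of batch 1, 0 to 13 for its 3 h against 1 h, and 6 to 45 for N211del minus INTS8. Centring turned 10 gene results from called higher to a negative value: SLC15A4 in the N211del line of batch 1 (-0.00056) and, at 1 h in that line of batch 2, SLC12A4 (-0.084), SLC12A7 (-0.083), SLC17A5 (-0.22), SLC20A1 (-0.17), SLC2A3 (-0.17), SLC35A3 (-0.13), SLC37A1 (-0.0098), SLC37A3 (-0.12) and SLC38A2 (-0.13). The cause of these changes was not tested beyond the settings named. Averaging pairs, leaving out a library and centring also moved the number of calls over all tested genes. Low members limit precision: SLC25A45 and SLC22A11 rest on as few as 7 units in a library, SLC22A3 on 5 in batch 1 and SLC6A13 on 4 in batch 2.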
